A study of Mus musculus with 3 samples.

Results

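The genes described here build, load and regulate the major histocompatibility complex (MHC), the cell-surface molecules that display peptides to T cells. They were read on 3 microarrays of mouse haematopoietic stem cells. Members were all genes whose symbol in the platform annotation begins with H2-, the mouse MHC, together with 14 named genes of the same pathway, taken from probe sets that name 1 gene. This gave 43 genes among 19938 measured, read by 61 of 35554 probe sets. There were 23 class I genes, 9 class II genes, 5 genes of peptide processing and loading and 5 transcriptional regulators. The remaining gene, H2-Ke6, carries an H2 symbol but encodes a short-chain dehydrogenase (also called Hsd17b8).

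The cells were sorted from bone marrow of wild-type C57Bl/6 mice aged 6 to 10 weeks as KLS SLAM cells, which lack mature lineage markers, CD48 and CD41 and carry c-Kit, Sca-1 and CD150. The 3 arrays, called 1, 2 and 3 after their replicate numbers, form the only group, so no genotype or treatment was compared. The labels do not say whether the arrays came from separate animals or from pools, so p-values measure the spread between these samples, and the number of arrays limits the precision. All values are log2 of the deposited intensities. Detection calls were not used. A background limit was set for each array at the 95th percentile of 1231 olfactory, vomeronasal and taste receptor genes, and a gene is called above the range here if every array put it over that array's limit. The limits of arrays 1, 2 and 3 were 6.30, 5.98 and 5.77 log2. They were exceeded by 39.3%, 49.1% and 55.2% of all genes, and 7345 genes (36.8%) exceeded all 3. Array 1 stood apart in this measure, since 1998 genes fell short on array 1 alone, and 46.9% of genes passed when it was left out, against 38.7% without array 2 and 37.0% without array 3. Taking the brightest probe set of each gene gave 37.3%, cyclic loess 37.0% and the 99th percentile of the receptor genes 17.4%. Probe sets differ in affinity, so levels of different genes are not ranked against each other.

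MHC class I molecules pair a polymorphic heavy chain with beta-2 microglobulin and present peptides made in the cytosol. The proteasome makes these peptides, the TAP transporter carries them into the endoplasmic reticulum, and tapasin holds the empty class I molecule next to TAP while a peptide binds. Class II molecules pair an alpha and a beta chain, first bind the invariant chain and later load peptides from endosomes. NLRC5 drives class I genes and CIITA drives class II genes, both on a scaffold of the RFX complex at the promoter. Nearly all nucleated cells carry class I, whereas class II is best known from dendritic cells, B cells and macrophages.

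Of the 43 members, 17 were above the range, 11 exceeded the limit on 1 or 2 arrays and 15 on none. The share of 39.5% lay near the 36.8% of all genes. By class, all 5 processing genes and 3 of 5 regulators were above the range, against 3 of 9 class II genes and 5 of 23 class I genes. These counts were not tested against each other.

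**Figure D1:**
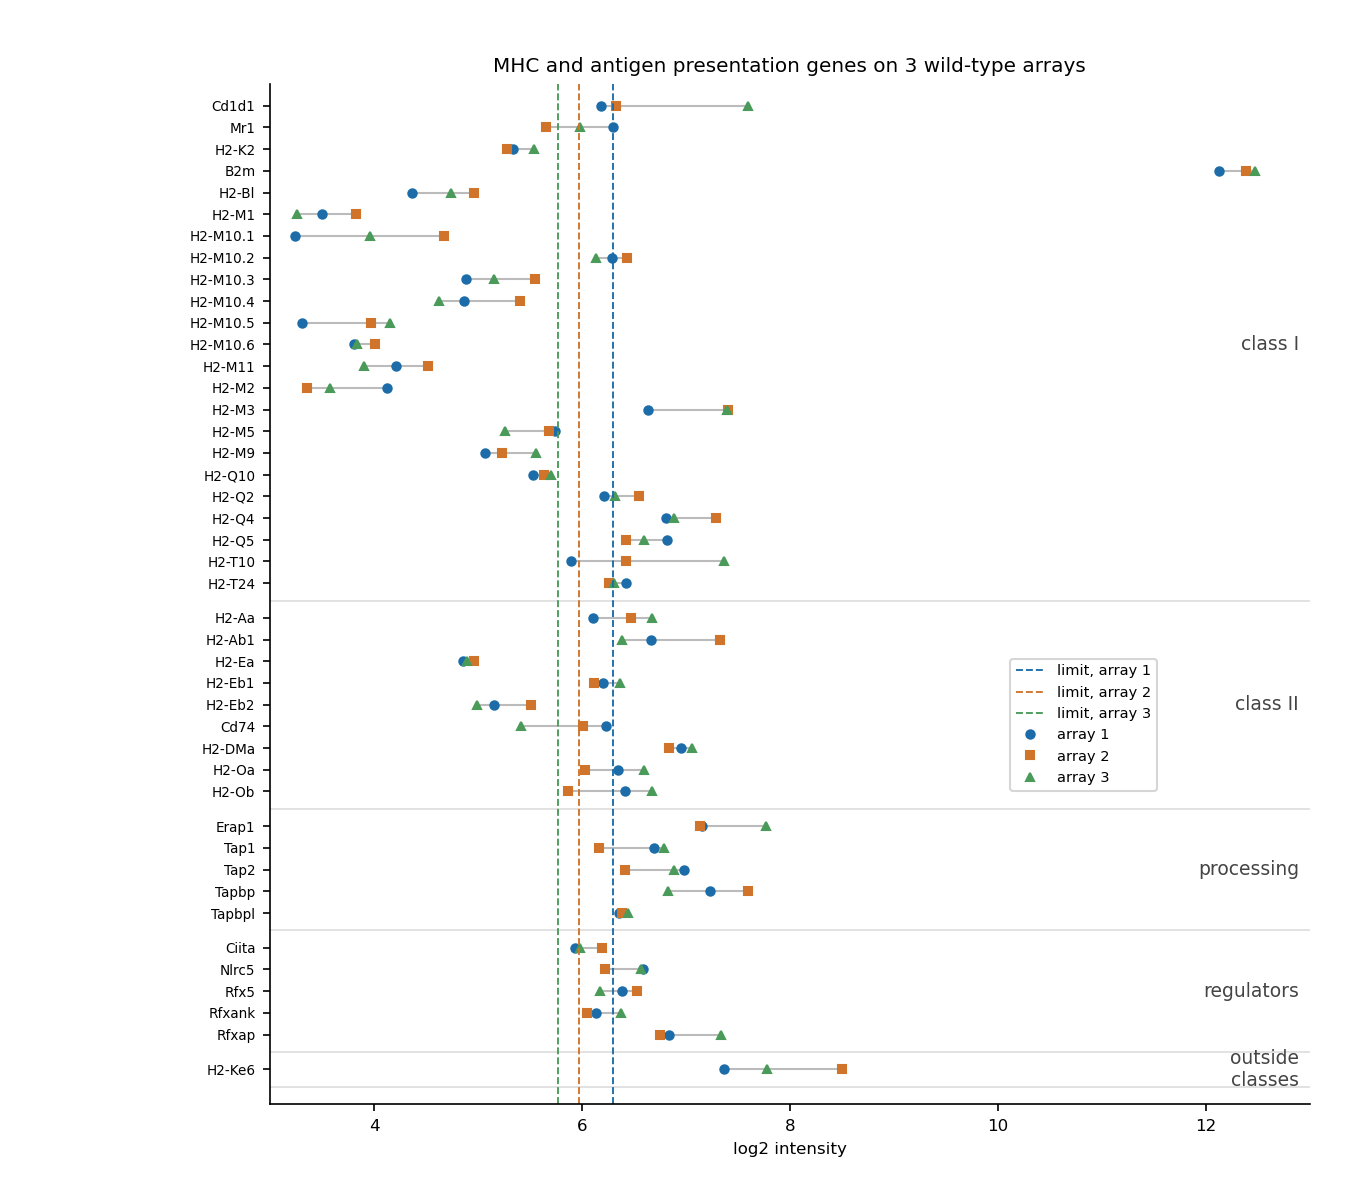
Log2 intensity of each of the 43 members (rows, grouped by class) on arrays 1 (circles), 2 (squares) and 3 (triangles), with dashed lines at each array's background limit. B2m lies near 12 on every array, each point of the 5 processing genes lies to the right of its own array's limit, and most H2-M genes lie to the left.

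B2m, the light chain shared by all class I molecules, was far above the range. It had 12.13, 12.38 and 12.47 log2 on arrays 1, 2 and 3 (12.33 ± 0.18, SD, n = 3). The lowest and highest array differed 1.27-fold. Its promoter is shown because it carries 2 elements through which class I genes are classically induced. The stretch runs from 149 to 39 bases before the transcript start on the plus strand (GRCm38.p6, chr2:122147538-122147648, RefSeq). Capitals mark a match to the interferon-stimulated response element, searched as GAAA, any 2 bases and GAAA, and then a Y box, searched as GATTGG, each on both strands and with no overlap between them.
B2m: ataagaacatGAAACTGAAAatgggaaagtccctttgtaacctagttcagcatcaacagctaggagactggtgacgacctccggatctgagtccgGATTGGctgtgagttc
Of 32851 promoter windows in the table, each read over 250 bases upstream, 2.98% held the first motif and 14.6% held the second. Among the 17 class I members with a window there, B2m alone held the first motif, and 11 held the second. Of these 11, B2m and H2-Q4 were above the range and H2-M10.2 passed on 2 arrays. The others, all H2-M genes, lay below every limit. A match is a description of the letters and not a measured site.

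The classical heavy chains H2-K1 and H2-D1 had no probe set of their own. The annotation gives 2 probe sets jointly to H2-K1, H2-D1 and LOC547349, so their signal cannot be assigned to either gene. One had 10.27, 10.46 and 10.69 log2 on arrays 1, 2 and 3 (10.47 ± 0.21, SD, n = 3). The other had 9.51, 9.51 and 9.17 (9.40 ± 0.20). Both lay above the limit of every array, and they ordered the arrays in opposite ways. H2-K2, a transcribed pseudogene beside H2-K1 in RefSeq, had 5.34, 5.28 and 5.54 and lay below the limit on each array.

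Another 6 probe sets were shared between class I or class II genes only. The probe set of H2-Q6 and H2-Q8, of the Qa-2 family, had 8.93, 8.50 and 8.22. The probe set of H2-T-ps and H2-T23, the gene of Qa-1, which binds inhibitory receptors of NK cells, had 7.49, 7.54 and 7.48. The probe set of H2-T9, H2-T22 and H2-T10, whose products are ligands of some gamma-delta T cell receptors, had 7.64, 7.60 and 8.29. All of these lay above the limit on every array, with array 3 the highest for the last. The probe set of H2-Q1 and H2-Bl had 6.86, 6.89 and 6.90, also above. The probe set of H2-T3 and H2-T18, which encode the thymus leukaemia antigen, had 5.06, 4.70 and 4.41, below the limit on every array.

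**Figure D2:**
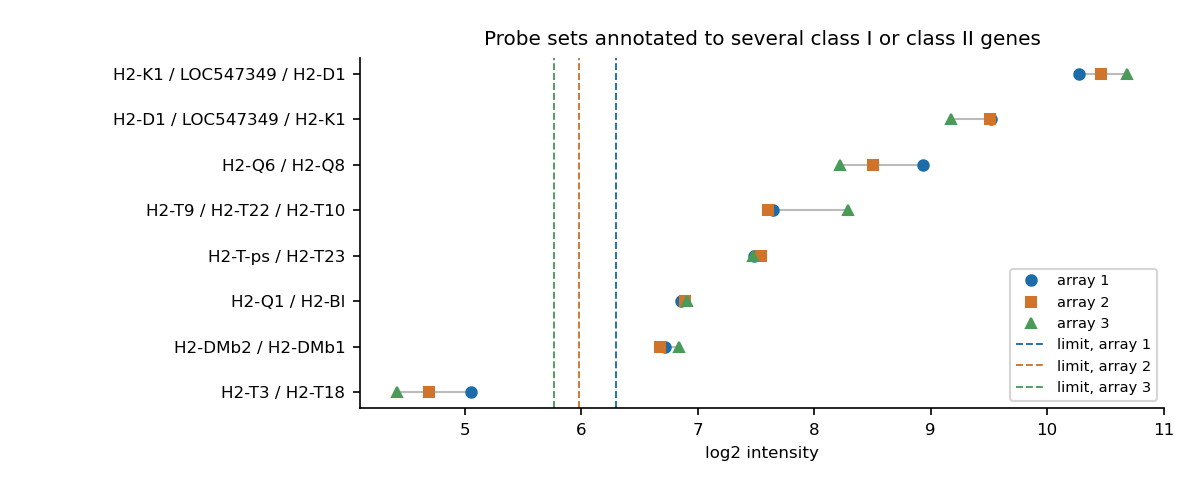
Log2 intensity of the 8 probe sets (rows) annotated to several class I or class II genes, on arrays 1 (circles), 2 (squares) and 3 (triangles), with dashed lines at each array's background limit. All but the probe set of H2-T3 and H2-T18 lie to the right of every limit.

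Among the non-classical class I genes with a probe set of their own, 4 of 19 were above the range, beside 36.8% of all genes. H2-M3, which presents formylated bacterial peptides, had 6.64, 7.41 and 7.40 on arrays 1, 2 and 3. H2-Q4 had 6.80, 7.29 and 6.89. H2-Q5, a transcribed pseudogene in RefSeq, had 6.82, 6.43 and 6.60. These 3 genes passed by at least 0.34 on each array, whereas H2-T24, at 6.43, 6.27 and 6.31, passed by 0.13 on array 1. H2-T24 also varied little, with an SD of 0.08.

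Another 3 non-classical genes were above the limit on 2 arrays. H2-T10, annotated in RefSeq as a transcribed pseudogene, had 5.90, 6.42 and 7.37, a 2.77-fold range with array 3 highest. Its copy-rich family shares sequence, and the probe set of H2-T9, H2-T22 and H2-T10 was also highest on array 3. H2-Q2 had 6.21, 6.55 and 6.32. H2-M10.2 had 6.29, 6.44 and 6.13 and missed the limit on array 1 by less than 0.01. All 3 genes missed on array 1 only.

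The H2-M genes were mostly low. Of 12 measured, H2-M3 was above the range and 10 were below the limit on every array, beside 42.0% of all genes. In the mouse, H2-M1, H2-M9 and the H2-M10 genes are known from sensory neurons of the vomeronasal organ, where they are made together with pheromone receptors. H2-M1 averaged 3.53 ± 0.28 and H2-M9 averaged 5.28 ± 0.25 (SD, n = 3 each). Of the H2-M10 genes, H2-M10.1, H2-M10.3, H2-M10.4, H2-M10.5 and H2-M10.6 lay below every limit, with means from 3.81 to 5.20. H2-M2, H2-M5 and H2-M11 averaged 3.69 ± 0.39, 5.56 ± 0.26 and 4.22 ± 0.31. H2-Q10, whose product is secreted by the liver, averaged 5.62 ± 0.09, and H2-Bl averaged 4.69 ± 0.31, also below every limit.

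Cd1d1 and Mr1 encode class I-like molecules outside the MHC that present lipids and vitamin B metabolites. Cd1d1, which selects natural killer T cells, had 6.18, 6.33 and 7.60 on arrays 1, 2 and 3, with array 3 well apart and array 1 below its limit. Mr1, which selects mucosal-associated invariant T cells, had 6.30, 5.66 and 5.99, and only array 2 lay below its limit. On array 1 Mr1 passed by less than 0.01.

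Of the 9 class II members, 3 were above the range, a share near the 36.8% of all genes, 4 were above on 1 or 2 arrays and 2 were below on every array. H2-Ab1, the beta chain of I-A, had 6.67, 7.33 and 6.39 on arrays 1, 2 and 3 and was above the limit on each. H2-Aa, its alpha chain partner, had 6.11, 6.47 and 6.68 and missed on array 1. The pair ordered the arrays differently, with H2-Ab1 lowest and H2-Aa highest on array 3. H2-Eb1, the beta chain of I-E, had 6.20, 6.12 and 6.37 and missed on array 1.

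The I-E alpha chain gene H2-Ea is not transcribed in mice of the b haplotype such as C57Bl/6, whose promoter carries a deletion. It had 4.85, 4.96 and 4.89, below the limit on every array, with an SD of 0.05. H2-Eb2 had 5.16, 5.51 and 4.99, likewise below. Cd74, the invariant chain that class II molecules need in the endoplasmic reticulum, had 6.24, 6.01 and 5.42 on arrays 1, 2 and 3. It passed the limit on array 2 alone.

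Of the 3 chains that act in peptide exchange on class II molecules, H2-DMa and H2-Oa were above the range. H2-DMa, the alpha chain of the exchange catalyst, had 6.95, 6.84 and 7.06, above the range. The probe set shared by its partners H2-DMb1 and H2-DMb2 had 6.72, 6.67 and 6.84, also above on every array, though that signal cannot be assigned to 1 gene. H2-Oa, the alpha chain of the DM inhibitor, had 6.34, 6.03 and 6.60 and passed by 0.05 on arrays 1 and 2. Its partner H2-Ob had 6.42, 5.87 and 6.68 and missed on array 2. H2-DMa, H2-Oa and H2-Ob were each lowest on array 2 and highest on array 3.

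Class II promoters share a module in which an X box precedes a Y box at a near-fixed distance and on which the RFX complex, CREB and NF-Y assemble. A search for GCAAC followed by 20 to 30 bases and GATTGG, on either strand, matched 0.177% of the 32851 windows. The pattern was written after these promoters had been read, so the count is a description. It matched 5 of the 6 class II members with a window and none of the 17 class I, 3 processing and 2 regulator members with one. H2-DMa was the exception, although it holds a Y box. The 5 stretches are shown with both boxes in capitals. The genes that carry them differed in their calls: H2-Oa was above the range, H2-Aa, H2-Eb1 and H2-Ob passed on 2 arrays, and H2-Eb2 on none. Apart from H2-Eb2, these calls turned on small distances from the limit. H2-Oa lay at 0.05 from it on arrays 1 and 2. H2-Aa lay at -0.19 and H2-Eb1 at -0.09 on array 1, and H2-Ob at -0.11 on array 2.
H2-Oa: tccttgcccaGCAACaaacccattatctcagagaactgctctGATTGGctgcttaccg
H2-Aa: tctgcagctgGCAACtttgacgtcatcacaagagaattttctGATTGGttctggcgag
H2-Eb1: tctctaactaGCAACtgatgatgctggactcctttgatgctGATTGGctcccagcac
H2-Ob: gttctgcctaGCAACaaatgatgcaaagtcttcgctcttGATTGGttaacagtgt
H2-Eb2: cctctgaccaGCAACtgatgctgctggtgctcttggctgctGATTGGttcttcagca
All come from RefSeq on GRCm38.p6. They lie at chr17:34092293-34092350 on the plus strand for H2-Oa, chr17:34287857-34287914 on the minus strand for H2-Aa, chr17:34305766-34305822 on the plus strand for H2-Eb1, chr17:34238808-34238862 on the plus strand for H2-Ob and chr17:34325533-34325589 on the plus strand for H2-Eb2. The boxes were 27 bases apart in H2-Oa and H2-Aa, 26 in H2-Eb1 and H2-Eb2 and 24 in H2-Ob.

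Markers of cells known for class II were mostly not above the range, where 36.8% of all genes lay. Of 17 dendritic cell and macrophage markers 3 were above it, Cd68 at 7.14 ± 0.12, Cx3cr1 at 6.58 ± 0.29 and the lysozyme gene Lyz2 at 9.61 ± 0.61 (SD, n = 3). Another 9 lay below the limit on every array. Among them were the macrophage genes Csf1r, Adgre1, C1qa and C1qb and the dendritic cell genes Itgax, Xcr1 and Clec9a. The remaining 5 of the list passed on 1 or 2 arrays: Siglech on 2, and Zbtb46, Batf3, Fcgr1 and C1qc on 1 each. The summed intensity of this list was 1333, 2111 and 1549 on arrays 1, 2 and 3, and 799, 883 and 820 without Lyz2, which carried most of the excess on array 2. Of the class II members, H2-Ab1, H2-Ea and H2-Eb2 were highest on array 2, which is 3 of 9 beside 38.6% of all genes. Of 11 B cell markers 1 was above the range, Cd79b at 6.56 ± 0.07, 6 lay below every limit, among them Cd79a, Ms4a1 and Ebf1, and 4 passed on 2 arrays. Those 4, named after their values were seen, missed on array 1 alone: the B lineage factor Pax5 at 6.07 ± 0.16, and the genes of the surrogate light chain and its accessory chain, Igll1 at 6.44 ± 0.29, Vpreb3 at 6.24 ± 0.09 and Vpreb1 at 5.81, 6.38 and 9.02 on arrays 1, 2 and 3. The summed intensity of the B cell list was 537, 581 and 1031, and 481, 498 and 512 without Vpreb1. The part of such cells in the class II signal was not tested, and in sorted bulk RNA fewer cells of a type and less RNA per cell cannot be told apart. All 11 measured stem cell markers were above the range. The granulocyte list had 10 of 12 above it, with summed intensities of 9922, 16895 and 15979. Its gene means ran from 6.10 to 12.37 log2. The T and NK cell list had 1 of 11 above the range, beside 36.8% of all genes.

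All 5 genes of peptide transport, loading and trimming were above the range, beside 36.8% of all genes. Tap1, one subunit of the transporter, had 6.69, 6.16 and 6.79 on arrays 1, 2 and 3. Tap2, the other subunit, had 6.99, 6.42 and 6.89. Both subunits were lowest on array 2, where they passed the limit by 0.19 and 0.44. Tapbp, which encodes tapasin, had 7.24, 7.60 and 6.83, with array 2 the highest. Another 2 probe sets name Tapbp together with the ribosomal protein gene Rps3a1, at means of 12.31 and 12.28, and were left out because that signal cannot be assigned. Tapbpl, which encodes the tapasin-related editor TAPBPR, had 6.36, 6.38 and 6.44 and passed by 0.06 on array 1. Erap1, the aminopeptidase that trims peptides to length, had 7.15, 7.14 and 7.78, with array 3 the highest.

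The regulators lay near the limit, apart from Rfxap. Rfxap, an RFX subunit, had 6.84, 6.75 and 7.34 on arrays 1, 2 and 3. Rfx5, its DNA-binding partner, had 6.39, 6.53 and 6.17 and was also above the range. The ankyrin-repeat subunit gene Rfxank had 6.13, 6.05 and 6.37 and missed on array 1 alone. Ciita, the class II transactivator, had 5.93, 6.20 and 5.98 and likewise missed on array 1 alone.

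Nlrc5, the class I transactivator, was the only member with several probe sets, and they disagreed. Their average was 6.59, 6.22 and 6.57 on arrays 1, 2 and 3, above the range. Of its 19 probe sets 10 were above the limit on every array, 5 on 1 or 2 arrays and 4 on none. Their means ran from 3.88 to 9.14, with a median of 6.45. The median over the probe sets was 6.85, 6.26 and 6.52 on arrays 1, 2 and 3, where the same array was lowest as for the average. Within the gene, 11 probe sets were lowest on array 2 and 0 were highest there, with 9 highest on array 1 and 10 on array 3. Over all genes, 34.1%, 28.8% and 37.1% were lowest on arrays 1, 2 and 3, and 31.6%, 38.6% and 29.8% were highest there. The Nlrc5 probe sets read the same gene and are not independent, so their counts are only a description.

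**Figure D3:**
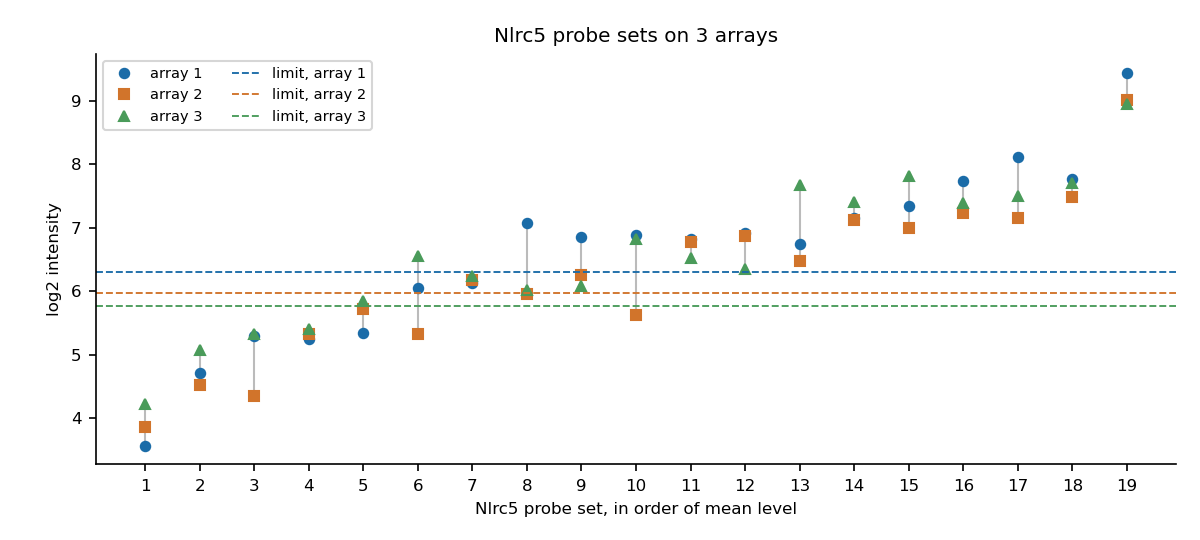
Log2 intensity of the 19 Nlrc5 probe sets, in order of mean level, on arrays 1 (circles), 2 (squares) and 3 (triangles), with dashed lines at each array's background limit. Probe sets of the same gene lie from below 4 to above 9, and squares are often the lowest of a column.

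H2-Ke6, the dehydrogenase gene that shares only its symbol and place with the MHC, had 7.37, 8.50 and 7.78 log2 on arrays 1, 2 and 3. It was above the range, and array 2 was the highest by 0.72.

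Genes of the MHC lie in blocks on chromosome 17, and 32 members map there in the GRCm38.p6 gene table. With the immunoproteasome genes Psmb8 and Psmb9, which lie among the class II and TAP genes, 34 genes could be put in order. Any other genes that lie between them were left out of this order. From H2-Ke6 through H2-Oa, H2-DMa, Psmb9, Tap1 and Psmb8 to Tap2, 7 genes in a row in this order were above the range. Next came H2-Ob, H2-Aa and H2-Eb1, which passed on 2 arrays each, with H2-Ab1 above the range among them, and then H2-Eb2 and H2-Ea below every limit. From H2-M10.1 to H2-M5, 9 genes in a row in this order lay below every limit, between H2-M10.2 and H2-M3. Of all genes, 36.8% were above the range and 42.0% lay below every limit. The runs were not tested against these shares. Tap1 and Psmb9 are transcribed away from each other, and their 300-base promoter windows share 275 bases. Psmb9 had 9.54, 9.96 and 9.66, highest on array 2, where Tap1 was lowest.

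**Figure D4:**
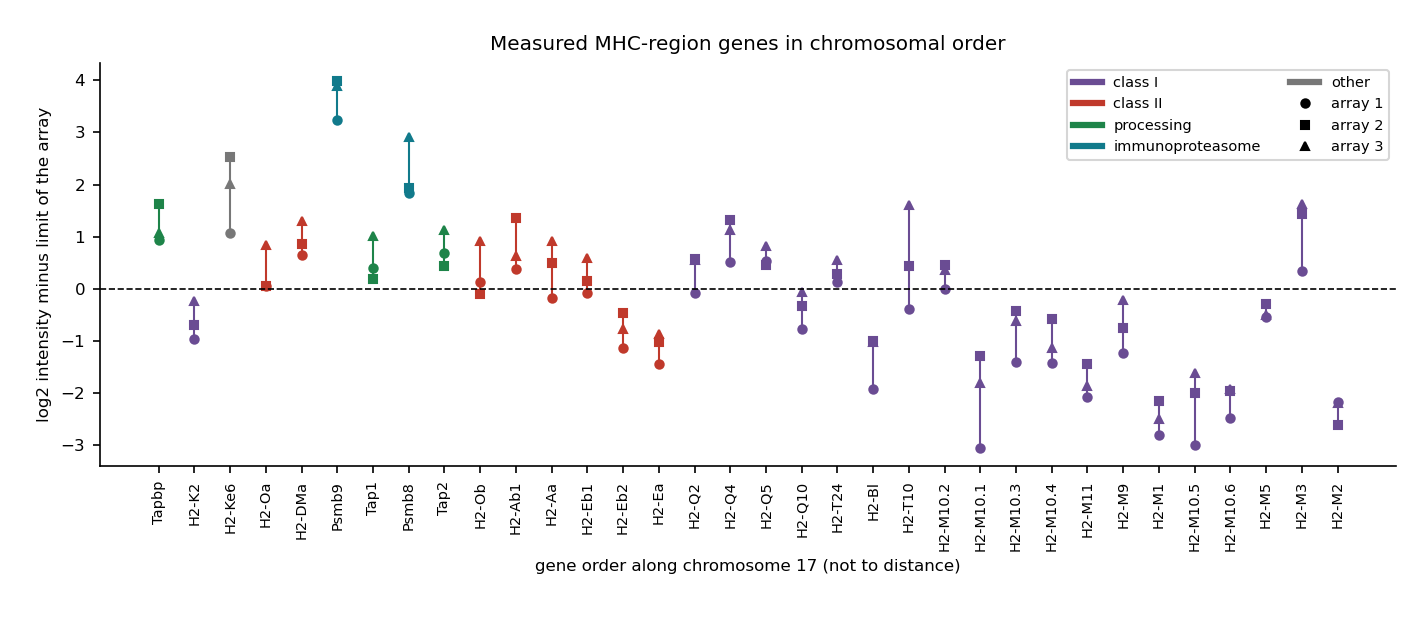
Log2 intensity minus the background limit of the same array for 34 measured genes, in their order along chromosome 17, on arrays 1 (circles), 2 (squares) and 3 (triangles), coloured by class. Apart from Psmb8 and Psmb9, genes outside the members are not shown. The genes shown from H2-Ke6 to Tap2 lie above the dashed line at 0, and those from H2-M10.1 to H2-M5 lie below it.

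The other genes of the pathway were read from lists chosen for this report. Over all genes, 36.8% were above the range, and no list was tested against this share. All 6 measured genes of the immunoproteasome and its activators were above the range. Psmb8, Psmb9 and Psmb10, the catalytic subunits induced by interferon, averaged 8.24 ± 0.40, 9.72 ± 0.22 and 7.41 ± 0.22 (SD, n = 3). Psme1, a subunit of the PA28 activator, averaged 10.84 ± 0.45. Its partner Psme2, named after its values were seen, had 6.67, 6.77 and 8.33 with array 3 well apart. All 10 measured genes of the peptide-loading chaperone list, which also holds other genes such as Nrd1, Tpp2 and Sec61a1, were above the range. Among them were the chaperones Calr, Canx and Hspa5 at 9.55 ± 0.03, 10.75 ± 0.18 and 9.83 ± 0.42, and the disulphide isomerase gene Pdia3 of the loading complex at 9.17 ± 0.37.

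Of the class II proteases and endosomal factors, 6 of 8 were above the range, beside 36.8% of all genes. The cathepsin genes Ctss, Ctsl, Ctsb and Ctsd averaged 8.13 ± 0.19, 8.21 ± 0.63, 7.43 ± 0.17 and 7.68 ± 0.21. Cathepsin S is the protease that removes the last fragment of the invariant chain. Lgmn, an endosomal protease, was below every limit at 4.81 ± 0.30, and Ifi30, the thiol reductase of endosomes, passed on array 3 alone at 6.12 ± 0.18. Of the interferon and MHC promoter factors, 14 of 15 were above the range, beside the same 36.8%. The interferon-gamma receptor genes Ifngr1 and Ifngr2 averaged 8.43 ± 0.53 and 7.63 ± 0.62. Their kinases Jak1 and Jak2 averaged 9.40 ± 0.29 and 7.98 ± 0.47. Irf8, a factor of myeloid and lymphoid cells, averaged 5.94 ± 0.17 and passed on 2 arrays.

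Of the surface ligands that act beside MHC molecules, 3 of 9 were above the range, near the share of all genes. These were Cd274, which encodes PD-L1, at 6.90 ± 0.31, Cd276 at 6.65 ± 0.16 and Cd47, the signal against phagocytosis, at 10.99 ± 0.25. The co-stimulators Cd80 and Cd40 lay below every limit at 5.39 ± 0.05 and 5.72 ± 0.18, and Cd86, at 5.55 ± 0.36, passed on array 3 alone.

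Each gene's variance was set against the trend of all genes at its level with limma (one-sided F test, adjusted by Benjamini-Hochberg over 19938 genes). At an adjusted p under 0.05 the test called 0 members and 0% of all genes, and the trend without robust estimation also called 0. The largest ratio of a member's SD to the trend at its level was 3.08, for H2-M10.1. A test that calls no gene at all with 3 arrays says nothing on whether members are stable. At an unadjusted p under 0.05 it gave 3 of 43 members, beside 5.10% of all genes. These were H2-M10.1 at 3.24, 4.68 and 3.96, H2-T10 and Cd1d1, with unadjusted p of 0.0259, 0.0321 and 0.0332 and an adjusted p of 0.955 for each (limma). H2-M10.1 lay below every limit, and H2-T10 and Cd1d1 were both highest on array 3.

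Each class is described by the median deviation of its genes from their own means. Class I genes lay a median of -0.10 log2 from their own means on array 1, 0.13 on array 2 and -0.02 on array 3, beside -0.01, 0.03 and -0.03 over all genes. Class II genes lay at -0.03, 0.05 and 0.11, processing genes at 0.01, -0.22 and 0.12 and regulators at -0.05, -0.14 and 0.11. In both of the last classes 3 of 5 genes were lowest on array 2, beside 28.8% of all genes, while Tapbp, Rfx5 and Ciita were highest there. Between array 3 and array 2 the median difference was 0.47 for processing genes and 0.33 for regulators, beside -0.06 over all genes. Some signs depended on the scaling. Class I on array 3 was 0.02 with quantile normalization and with cyclic loess, and class II on array 2 was -0.003 with cyclic loess. Larger values also turned under other settings. With only genes above a limit on at least 1 array, class I on array 2 was -0.01. With the brightest probe set, regulators on array 3 were at -0.05. Within the pathway, the immunoproteasome list deviated most, by 0.43 on array 3. On that array 4 of its 6 genes were highest, beside 29.8% of all genes. Bright genes in general were higher on array 3, by a median of 0.15 for the 1082 genes with mean levels of 8 to 9. The same genes lay at a median of -0.16 on array 1. The granulocyte list lay at -0.51, 0.26 and 0.13, lowest on array 1. Class I, class II and the stem cell, dendritic cell and macrophage, immunoproteasome and peptide-loading chaperone lists were also lowest there. The other classes and lists were lowest on array 2 or 3. The part of the granulocyte list in these shifts was not tested.

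**Figure D5:**
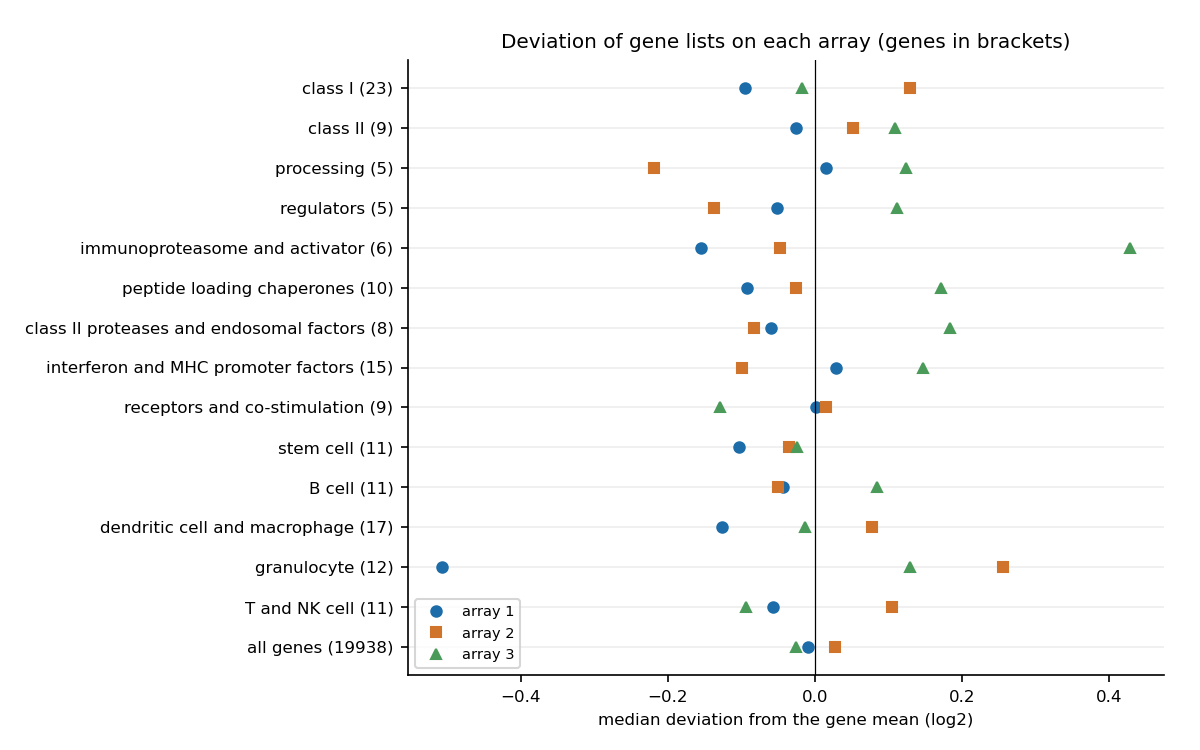
Median over the genes of each list of the deviation from the gene's own mean (log2) on arrays 1 (circles), 2 (squares) and 3 (triangles), with the number of genes in brackets. The 4 member classes stay within 0.22 of 0, the immunoproteasome list reaches 0.43 on array 3, and the granulocyte list reaches -0.51 on array 1.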

How the data were processed

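Gene expression was measured on 3 single-colour arrays of biotin-labelled, amplified RNA. The deposited values are intensities that the authors made with RMA; the submitters' processing notes name Expression Console as the software, with a version not given in the sources used here. RMA normally gives log2 values, but these ran from 2.82 to 18384, so they were read as linear and log2 was taken, with no pseudocount. Of 35554 probe sets 21789 name 1 gene, 1621 several and 12144 none in the platform annotation. Several probe sets of a gene were averaged in log2, leaving 19938 genes. All 43 members matched a gene ID of the GRCm38.p6 table. Promoters come from RefSeq, with a window for 29 members.

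Variation was tested with limma 3.58.1 and statmod 1.5.0 in R 4.3.3 (4.34 prior degrees of freedom), after a test on simulated data. The members, classes, lists and tests were chosen with earlier results of these data known. Values per array are given for classical class I, class II, processing and regulator members and for others above the range. The other lists are named by their first 4 measured genes (marker lists by counts) and by genes on the rarer side of the limit. Alternatives were another percentile, other normalizations, the brightest or shared probe sets, other fits and each array left out.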

Additional observations from a re-analysis of the deposited data

Results flagged for a closer look

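Probe sets annotated to several genes were outside the main counts, and 7 of the 8 that name class I or class II genes were above the background limit on every array. Their mean log2 levels were 10.47 and 9.40 for those naming H2-K1, H2-D1 and LOC547349, 8.55 for H2-Q6 and H2-Q8, 7.84 for H2-T9, H2-T22 and H2-T10, 7.50 for H2-T-ps and H2-T23, 6.89 for H2-Q1 and H2-Bl and 6.75 for H2-DMb2 and H2-DMb1. The signal of each cannot be assigned to 1 gene.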

How the results depend on the processing

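The counts above the background range depended on the limit and on array 1. With the 99th percentile of the receptor genes, 4 of 43 members passed (17.4% of all genes): 1 class I gene, 0 class II genes, 2 processing genes and 0 regulators, besides H2-Ke6. Leaving out each array in turn gave 17 to 25 members, with 5 to 9 class I genes, 3 to 5 class II genes, 5 processing genes and 3 to 5 regulators. The highest counts came without array 1, where 46.9% of all genes passed and Cd1d1, H2-M10.2, H2-Q2, H2-T10, H2-Aa, H2-Eb1, Ciita and Rfxank were added. Adding probe sets that name several members gave 9 of 28 class I features, and adding the H2-K1 and H2-D1 probe sets, an alternative chosen after seeing the data, gave 11 of 30. The brightest probe set, quantile normalization, cyclic loess and Nlrc5 as a median, the last also added later, each kept the same 17 genes. None of 8 alternative tests of variation called any gene, which says nothing on stability. Of 75 alternative values of the 15 class deviations 9 turned sign, in 6 of the deviations. With only genes above a limit on at least 1 array, array 2 turned to -0.09 over all members, -0.01 for class I and -0.11 for class II, and array 1 to 0.0015 for class II. Class I on array 3 turned to between 0.02 and 0.05 under quantile normalization, cyclic loess or a mean, class II on array 2 to -0.003 under cyclic loess, and regulators on array 3 to -0.05 with the brightest probe set. No paired analysis was possible because there is only 1 group. Signal near background limits the class II and regulator calls.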
